A study of Mus musculus with 12 samples.

Results

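Translation initiation factors bring a ribosome, an initiator tRNA and an mRNA together at a start codon. Their mRNAs are described here in mouse oocytes, from females fed a high-fat diet (HFD) and from females fed a control diet (CD). The genes were the rows of the count table whose symbol starts with Eif and a digit, leaving out Eif4e1b, Eif4enif1, Eif2ak3 and Eif2s1. That rule gave 51 of the 24062 genes in the table. They include kinases that restrain the factors and the 4E-BP proteins that bind one of them. Of the 51, 44 passed the filter on low counts, as 9935 of all genes did, and could be tested. The other 7 (Eif1a, Eif2b5, Eif2s3x, Eif2s3y, Eif3j1, Eif3j2 and Eif4ebp3) are given by their levels only. The roles given below are textbook background.

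HFD oocytes (6 libraries) came from females fed a modified D12492 high-fat, high-calorie feed, E15741-34, for 9 weeks. CD oocytes (6 libraries) came from females fed D12492 for the same time, so the labels give both feeds one product code and what the control feed held is uncertain. All females were mated with vasectomized males while eating the CD, and oocytes were taken at day 0.5 post coitum. Each library was a pool of 4 oocytes. The labels name 6 females per diet without tying them to pools. The p-values below therefore describe variation among pools, some of it possibly technical.

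In the cap-dependent route, eIF4E binds the cap of the mRNA, eIF4G is the scaffold and eIF4A unwinds the leader with eIF4B and eIF4H. The small ribosomal subunit carries eIF1, eIF1A, the multi-subunit eIF3 and eIF2 with the initiator tRNA, and scans until the start codon is reached. eIF5 then triggers GTP hydrolysis on eIF2, eIF5B joins the subunits, and eIF2B reloads eIF2 with GTP. A full-grown oocyte makes almost no new mRNA and works from stored messages, many of which are translated once their poly(A) tails are lengthened. The mRNA levels below say nothing of how much factor protein was present.

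The depth of the libraries, as summed gene counts, was 8409491 to 13793598 in HFD and 8556396 to 10477316 in CD. Levels are given as CPM, the count of a gene scaled to the effective size of its library, which is the sum of gene counts times edgeR's TMM factor. HFD replicate 3 stood apart with 14755 genes detected, against at most 13052 in any other library. Reads aligned to more than 1 place made up 26.8% to 35.7% of tallied reads in HFD libraries, highest in replicates 3 (35.7%) and 1 (34.7%), and 18.6% to 26.5% in CD libraries. All counts were even in 4 HFD libraries (replicates 1, 2, 4 and 6) and in 0 CD libraries, so in those 4 this property and the diet cannot be told apart. Oocyte markers had counts for 9 of 9 genes and summed to between 11505 and 22910 CPM in HFD libraries and between 9049 and 17378 CPM in CD libraries. Cumulus and granulosa markers had counts for 10 of 12 genes (Amh and Ptx3 at 0) and summed to between 107 and 1818 CPM in HFD libraries (329 CPM in replicate 3) and between 133 and 1355 CPM in CD libraries. Oviduct markers (3 of 3 genes with counts) summed to at most 20.1 CPM in HFD and 7.23 CPM in CD libraries. Blood and immune markers (2 of 3, Hbb-bs at 0) summed to at most 0.662 CPM in HFD and 3.52 CPM in CD libraries. In such bulk pools, fewer cells of a type and less RNA per cell cannot be told apart. The part of these differences between libraries in the values below was not tested.

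The start codons of 8 of the mRNAs come first, since recognising this codon is the task of the whole machinery. eIF1 is known to reject start codons in a poor context, and the context of its own start codon is known to be poor. Each line gives 24 bases of the GENCODE M21 transcript (GRCm38), 5′ to 3′, with the annotated start codon in capitals.
Eif1: gaatcgtatcgtATGtccgctatc
Eif1b: cactagtgtcgcATGtccactatc
Eif5: taataagccaaaATGtctgtcaac
Eif2s2: cgaactacagccATGtccggggac
Eif3m: ccggccttcaccATGagcgtcccg
Eif4e: gatcgatctaagATGgcgactgtg
Eif5a: aagcctcttaaaATGgcagatgat
Eif4g2: caagccgccaaaGTGgagagtgcg
Eif1 and its paralog Eif1b both had C 3 bases before the start codon and T right after it (CNNATGT, transcript strand). Of all 51 genes these 2 held that pattern, as did 192 of 20400 annotated protein-coding genes (0.941%). Eif4g2, which codes for the scaffold DAP5, started at GTG. An annotated start codon other than ATG occurred in 25 of the 20400 genes (0.123%).

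No initiation factor passed the test between the diets. With edgeR's quasi-likelihood test and Benjamini-Hochberg adjustment over all 9935 genes, 0 of 44 were called at an adjusted p of 0.05, as were 0 of all genes (0% in either direction). The smallest adjusted p of any gene was 0.0913, and Eif3m shared that value. DESeq2 called 2 of the 39 factors it gave an adjusted p, Eif3k and Eif1ax, both higher in HFD oocytes. It gave none for the other 5 (Eif2ak2, Eif3g, Eif3l, Eif3m and Eif4ebp2). It called 6.03% of 8110 genes higher and 3.45% lower. limma-voom called 0 factors, against 0.322% of all genes higher and 0.0302% lower.

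At an unadjusted p under 0.05 in edgeR, 7 factors had higher values in HFD oocytes (Eif1ax, Eif2s2, Eif3g, Eif3k, Eif3l, Eif3m and Eif5), or 15.9%, against 13.4% of all genes. Only Eif4g2 was lower, or 2.27%, against 8.89% of all genes. Without HFD replicate 3 the count was 6 higher, against 9.26% of all genes, and 1 lower, against 7.94%. Of the first 7, Eif2s2, Eif3k, Eif3m and Eif5 were still among those 6, joined by Eif4e3 and Eif5b. Without CD replicate 3 the count was 7 higher, against 9.82% of all genes, and 0 lower, against 4.81%. The fitted log2 fold change (HFD minus CD) was above 0 for 29 of 44 factors (65.9%), against 51.8% of all genes, and below 0 for 15 (34.1%), against 48.2%. The median over the 44 was 0.32, against 0.04 over all genes, and without HFD replicate 3 it was 0.15, against -0.037.

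The diets overlapped for every one of the 44 factors, while 1.17% of all genes had all HFD libraries above all CD libraries and 1.28% had all below. Without HFD replicate 3, Eif2s2 and Eif5 had all remaining HFD libraries above every CD library. That share, 2 of 44, stands beside 2.0% of all genes, with 0 factors and 1.35% of all genes below, and this count was added after the values were seen.

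**Figure D1:**
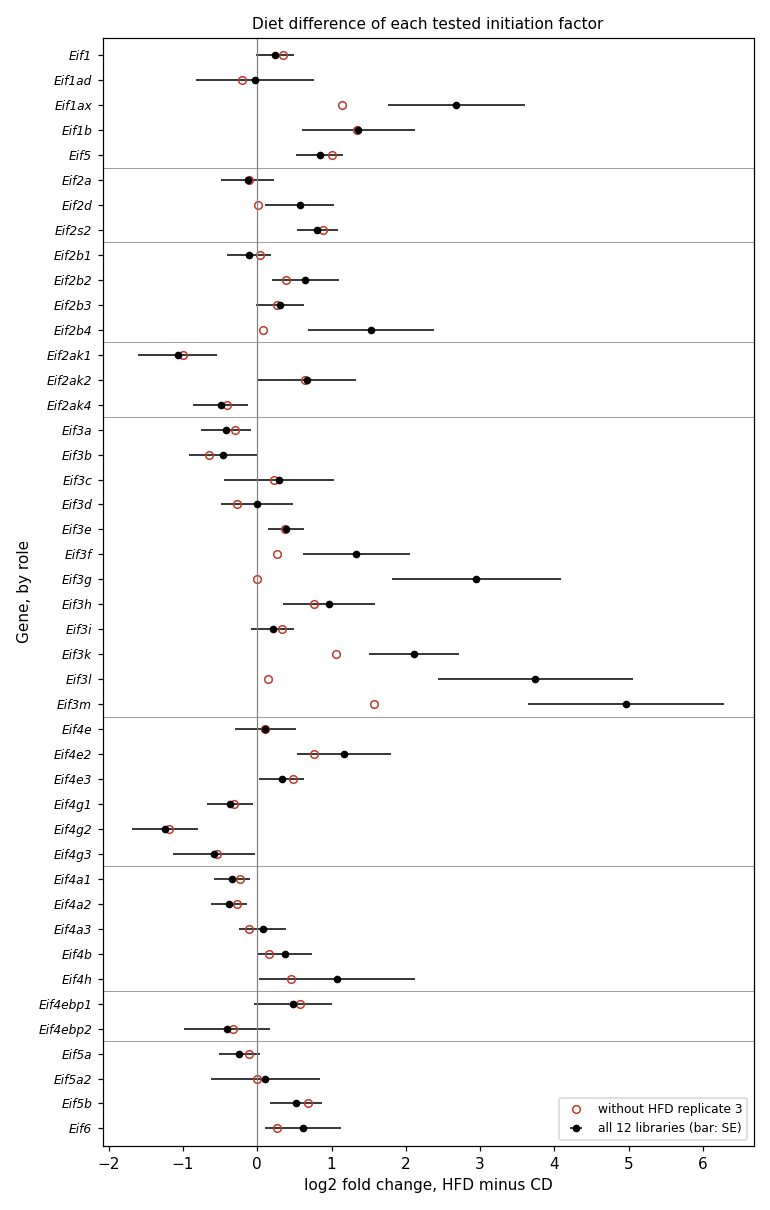
The log2 fold change (HFD minus CD, x axis) of each of the 44 tested initiation factors (y axis, grouped by role) from all 12 libraries is shown as black points with bars of 1 SE, and open red circles give the value without HFD replicate 3. Eif3m (4.96, against 1.57 without that library), Eif3l (3.74, against 0.15) and Eif3g (2.95, against -0.0016) show the widest gaps between both symbols.

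Among the factors that scan for and select the start codon (6 genes, 5 tested), 4 had fold changes above 0 and 1 below, and the median was 0.84 (1.0 without HFD replicate 3). eIF1 holds the scanning subunit open. Eif1 (chromosome 11, bases 100319885 to 100322096, GRCm38) had its lowest, median and highest values at 552, 1013 and 1282 CPM in HFD libraries, against 600.3, 809.7 and 1152 CPM in CD libraries. The diets overlapped nearly throughout, with a log2 fold change of 0.24 ± 0.25 (SE) and an adjusted p of 0.596. Of its 50-base windows, 31.6% also occur in transcripts of other genes, so its count depends on how shared reads were treated. Its paralog Eif1b (chromosome 9, bases 120492232 to 120495330) shared 0.811% of its windows.

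Eif1b was far more variable than Eif1. It had 1899, 1229, 799.9, 323, 142 and 243 CPM in HFD replicates 1 to 6. The CD replicates 1 to 6 had 87.7, 704, 49.0, 740.3, 117 and 112 CPM. Each diet therefore held libraries near the low end and libraries several times higher: HFD replicates 1 to 3 and CD replicates 2 and 4 were the 5 highest. The fitted log2 fold change was 1.36 ± 0.76, with an adjusted p of 0.306.

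eIF1A works with eIF1 in scanning, and in the mouse it is encoded by Eif1ax on the X chromosome and by Eif1a on chromosome 18. Eif1ax (bases 159372178 to 159389928) had 97.3, 71.8, 537, 15.6, 12.9 and 18.8 CPM in HFD replicates 1 to 6, against 5.69, 40.9, 8.22, 41.0, 10.6 and 10.9 CPM in CD replicates 1 to 6. HFD replicate 3 was far above the others, HFD replicates 1 and 2 were above every CD library, and HFD replicates 4 to 6 lay inside the CD range. Over all libraries the log2 fold change was 2.68 ± 0.92 with an adjusted p of 0.121 in edgeR and 0.0191 in DESeq2, and without HFD replicate 3 it was 1.14. Eif1a had at most 4.50 CPM in an HFD library and 2.55 CPM in a CD library. Eif1ad, a nuclear protein with an eIF1A-type domain, had a median of 9.82 CPM in HFD and 7.43 CPM in CD libraries.

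Eif5 codes for the protein that makes eIF2 hydrolyse its GTP at the start codon, and its mRNA (chromosome 12, bases 111538016 to 111546752) was among the most abundant of the factors. It had 2822, 1410, 662, 2199, 1537 and 2722 CPM in HFD replicates 1 to 6, against 1052, 855, 846, 1328, 914 and 1364 CPM in CD replicates 1 to 6. HFD replicate 3 was the lowest of all 12 libraries, and the other 5 HFD libraries lay above all 6 CD libraries. This corresponded to a log2 fold change of 0.84 ± 0.32 with an adjusted p of 0.152, and 1.0 with an adjusted p of 0.118 without HFD replicate 3. In the 8 libraries with odd counts, which keep HFD replicates 3 and 5 alone, it was 0.0091.

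The genes of eIF2 and of other proteins that deliver the initiator tRNA (5 genes, 3 tested) had a median log2 fold change of 0.57, or 0.015 without HFD replicate 3. Eif2s2, the beta subunit of eIF2 (chromosome 2, bases 154871410 to 154892935), had 1529, 873, 702, 1093, 943 and 1210 CPM in HFD replicates 1 to 6, against 734, 654, 295, 795, 453 and 692 CPM in CD replicates 1 to 6. All 6 HFD libraries lay above the CD mean, and only HFD replicate 3 lay inside the CD range. The fit gave a log2 fold change of 0.81 ± 0.28 with an adjusted p of 0.123. It was 0.89 without HFD replicate 3 and 0.39 in the 8 libraries with odd counts. Of its 50-base windows, 27.8% also occur in the predicted gene Gm9892.

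The gamma subunit of eIF2, which holds GTP, is encoded by Eif2s3x and by its Y-linked copy Eif2s3y. Eif2s3x had a median of 0.736 CPM in HFD and 0.710 CPM in CD libraries, near the level of a few reads. It shares 36.2% of its windows with a pseudogene and a predicted gene. Eif2s3y had no count in any library, and oocytes of females carry no Y chromosome. Eif3j1 and Eif3j2 had no count in any library either. A count of 0 allows up to 3 counts, or 0.243 to 0.355 CPM in HFD and 0.271 to 0.374 CPM in CD libraries, and this limit covers counting error only. For Eif3j1 and Eif3j2 it does not bound the mRNA, since 54.8% and 91.8% of their windows also occur in other genes, each other included, and reads aligned to more than 1 place were tallied apart from the gene counts. Eif2a and Eif2d can deliver tRNA without eIF2. Eif2a ranged from 11.8 to 50.8 CPM in HFD and from 25.8 to 45.3 CPM in CD libraries, and Eif2d had medians of 17.0 CPM in HFD and 12.8 CPM in CD libraries.

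eIF2B, the factor that exchanges GDP for GTP on eIF2, is built from 5 kinds of subunit, and their mRNAs differed widely in level. Eif2b1, the regulatory alpha subunit (chromosome 5, bases 124570213 to 124579131), had its lowest, median and highest values at 630.3, 1346 and 2449 CPM in HFD libraries, against 1088, 1608 and 2219 CPM in CD libraries. Most libraries of both diets lay in one range, with HFD replicate 3 the lowest, and the log2 fold change was -0.11 ± 0.30 (adjusted p of 0.864). Eif2b5, the catalytic epsilon subunit, had a median of 0.464 CPM in HFD and 0.371 CPM in CD libraries. Eif2b4 had 90.9 CPM in HFD replicate 3, while its other 11 libraries had between 1.10 and 17.0 CPM. Eif2b2 and Eif2b3 had medians of 18.2 and 86.8 CPM in HFD libraries and 9.0 and 57.8 CPM in CD libraries.

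The kinases that phosphorylate eIF2 and so slow initiation had lower values in HFD oocytes for 2 of 3, with a median log2 fold change of -0.49. Eif2ak1, the haem-regulated kinase HRI (chromosome 5, bases 143817788 to 143904251), had 16.1, 26.7, 42.1, 120.3, 81.5 and 68.6 CPM in HFD replicates 1 to 6, against 128, 43.3, 243, 35.6, 175 and 123 CPM in CD replicates 1 to 6. All HFD libraries were below the CD mean, yet CD replicates 2 and 4 lay among the HFD values. On the log2 scale, the fold change was -1.07 ± 0.53 with an adjusted p of 0.248. Eif2ak4, the amino acid sensor GCN2 (chromosome 2, bases 118388618 to 118475234), had lowest, median and highest values of 26.9, 35.5 and 58.6 CPM in HFD libraries, against 27.3, 48.0 and 98.2 CPM in CD libraries. edgeR gave a log2 fold change of -0.49 ± 0.37 (adjusted p of 0.454), and without CD replicate 1 it was -0.27. Eif2ak2, the double-stranded RNA sensor PKR, had medians of 1.88 CPM in HFD and 1.27 CPM in CD libraries. The chemistry did not mark the strand, and 12.1% of the windows of Eif2ak1 also occur in transcripts of Aimp2 or Ankrd61, its neighbours.

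eIF3 is the largest initiation factor and links the small subunit to eIF4G. Of its 14 genes 12 could be tested, 9 with fold changes above 0 and 3 below, with a median log2 fold change of 0.68. Without HFD replicate 3 the same 12 gave 8 above and a median of 0.24. The 3 largest fold changes of all the factors were in this complex, in Eif3m, Eif3l and Eif3g, and each had its highest value in HFD replicate 3.

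Eif3m (chromosome 2, bases 104999656 to 105017080) had 2.59, 1.47, 200.3, 4.49, 5.73 and 3.09 CPM in HFD replicates 1 to 6, against 0.904, 0.673, 0.189, 0.498, 1.68 and 2.95 CPM in CD replicates 1 to 6. All 6 HFD libraries lay above the CD mean and HFD replicate 3 far above the rest, and the ranges overlapped at 1.47 to 2.95 CPM. This corresponded to a log2 fold change of 4.96 ± 1.32 with an adjusted p of 0.0913, and 1.57 with an adjusted p of 0.240 without HFD replicate 3. It passed the filter on low counts, which uses unscaled library totals, with 6 HFD libraries but 3 CD libraries over the limit, and 40% of its windows also occur in other genes.

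Eif3l (chromosome 15, bases 79075179 to 79094405) had 101 CPM in HFD replicate 3, 0.368 to 3.53 CPM in the other HFD libraries and 0.125 to 2.89 CPM in CD libraries. The fit gave a log2 fold change of 3.74 ± 1.31 (adjusted p of 0.127), and 0.15 without that library. Eif3g, an RNA-binding subunit (chromosome 9, bases 20894349 to 20898623), had 144 CPM in HFD replicate 3, 0.552 to 5.73 CPM in the other HFD libraries and 1.06 to 8.32 CPM in CD libraries. The fitted log2 fold change was 2.95 ± 1.14 (adjusted p of 0.158), and -0.0016 without that library. For both subunits the other 5 HFD libraries lay within or close to the CD range. Eif3l reached the filter level in 4 HFD and 3 CD libraries.

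Eif3k (chromosome 7, bases 28971372 to 28981864) had 54.2, 13.6, 301, 40.7, 35.7 and 62.7 CPM in HFD replicates 1 to 6, against 24.6, 18.9, 11.3, 27.9, 12.5 and 22.3 CPM in CD replicates 1 to 6. HFD replicates 1, 3, 4, 5 and 6 were above every CD library, and HFD replicate 2 was near the bottom of the CD range. Over all libraries the log2 fold change was 2.11 ± 0.61, with an adjusted p of 0.0962 in edgeR and 0.0123 in DESeq2. Without HFD replicate 3 it was 1.06, with an adjusted p of 0.192 in edgeR. Eif3f (chromosome 7, bases 108934417 to 108942951) had lowest, median and highest values of 1.42, 3.74 and 31.5 CPM in HFD libraries, against 1.32, 2.95 and 6.69 CPM in CD libraries. HFD replicate 3 was again the highest, and the log2 fold change of 1.33 ± 0.72 (adjusted p of 0.282) was 0.26 without it.

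The other tested eIF3 subunits also overlapped between the diets. Eif3e had lowest, median and highest values of 85.4, 104 and 154 CPM in HFD libraries, against 61.9, 86.3 and 101 CPM in CD libraries, so that the CD values ended inside the HFD range. Eif3i, a scaffold subunit with WD repeats, had medians of 312 CPM in HFD and 285 CPM in CD libraries. Eif3a, the largest subunit and a core of the complex (chromosome 19, bases 60761117 to 60790658), had lowest, median and highest values of 14.9, 26.1 and 48.0 CPM in HFD libraries, against 25.9, 32.9 and 50.8 CPM in CD libraries. This corresponded to a log2 fold change of -0.42 ± 0.34 (adjusted p of 0.492). Eif3b, another core subunit, had medians of 7.94 CPM in HFD and 14.0 CPM in CD libraries. Eif3c, Eif3d and Eif3h had medians of 24, 17.8 and 21.2 CPM in HFD libraries and 16.2, 15.7 and 10.3 CPM in CD libraries. Other genes share 18.4%, 22% and 26.2% of the 50-base windows of Eif3d, Eif3e and Eif3h. For Eif3d these include the antisense gene Gm17638, which overlaps its exons, and the chemistry did not mark the strand.

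The cap-binding proteins and scaffolds (6 genes, all tested) divided evenly, 3 with fold changes above 0 and 3 below, and the 3 below were the eIF4G scaffolds. Eif4g2 (chromosome 7, bases 111067750 to 111083030), whose GTG start codon is shown above, codes for DAP5, a scaffold that lacks the eIF4E-binding part. It had 139.6, 113, 124, 135, 270.4 and 211 CPM in HFD replicates 1 to 6, against 378, 173, 1096, 190.3, 250.1 and 258 CPM in CD replicates 1 to 6. All 6 HFD libraries were below the CD mean, HFD replicates 5 and 6 lay inside the CD range, and CD replicate 3 was far above all others. The fit gave a log2 fold change of -1.24 ± 0.44 with an adjusted p of 0.134, and -0.62 with an adjusted p of 0.362 without CD replicate 3.

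Eif4g1, the main scaffold (chromosome 16, bases 20668313 to 20692884), had lowest, median and highest values of 13.5, 20.7 and 28.0 CPM in HFD libraries, against 17.9, 24.1 and 36.3 CPM in CD libraries. On the log2 scale, the fold change was -0.37 ± 0.31 (adjusted p of 0.513). Eif4g3 (chromosome 4, bases 137993022 to 138208508) had 5.84, 15.3 and 47.7 CPM in HFD libraries, against 7.97, 23.8 and 53.4 CPM in CD libraries, in the same order. edgeR gave a log2 fold change of -0.58 ± 0.55 (adjusted p of 0.575), and the diets overlapped for both scaffolds.

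Of the cap-binding proteins, Eif4e3 had the higher level per transcript length, with medians of 475 CPM per kb in HFD and 319 CPM per kb in CD libraries. The classical Eif4e had 87.5 CPM per kb in HFD and 65.2 CPM per kb in CD libraries. Eif4e3 (chromosome 6, bases 99625135 to 99666771) had lowest, median and highest values of 434, 1193 and 1588 CPM in HFD libraries, against 741, 803 and 1213 CPM in CD libraries. The 4 highest libraries held 3 of the HFD group and CD replicate 1, HFD replicate 3 was the lowest, and the log2 fold change was 0.33 ± 0.30 (adjusted p of 0.546). Eif4e (chromosome 3, bases 138526179 to 138559696) had 221, 437 and 787 CPM in HFD libraries, against 214, 326 and 891 CPM in CD libraries, in the same order. This corresponded to a log2 fold change of 0.11 ± 0.41 (adjusted p of 0.897). Eif4e2, the cap-binding protein 4EHP that is known for repressing translation (chromosome 1, bases 87213914 to 87240488), had medians of 5.91 CPM in HFD and 3.22 CPM in CD libraries. The fit gave a log2 fold change of 1.17 ± 0.63 (adjusted p of 0.282), and 0.76 without HFD replicate 3.

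The helicase group (5 genes, all tested) had a median log2 fold change of 0.072, with 3 above and 2 below 0. Both below were the eIF4A helicases Eif4a1 and Eif4a2. Without HFD replicate 3 the median of the group was -0.11, with 2 of 5 above 0. Eif4a2 (chromosome 16, bases 23107444 to 23114136) had 87.4, 118, 56.6, 126, 123 and 127 CPM in HFD replicates 1 to 6, against 137, 141, 119, 146, 162 and 126 CPM in CD replicates 1 to 6. All 6 HFD libraries were below the CD mean and 3 of them lay inside the CD range. The fitted log2 fold change was -0.38 ± 0.24 with an adjusted p of 0.366. Eif4a1 (chromosome 11, bases 69666936 to 69672423) had lowest, median and highest values of 371, 649 and 844 CPM in HFD libraries, against 564, 872 and 1001 CPM in CD libraries. edgeR gave a log2 fold change of -0.34 ± 0.24 (adjusted p of 0.427), and 65.3% of its windows also occur in other genes. Eif4a3, the helicase of the exon junction complex, had medians of 47.0 CPM in HFD and 52.7 CPM in CD libraries. Other genes share 24.4% of its 50-base windows. The helper Eif4b had medians of 25.2 CPM in HFD and 18.9 CPM in CD libraries, and the helper Eif4h had 2.89 CPM in HFD and 1.56 CPM in CD libraries.

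The 4E-BP genes had low counts. 4E-BPs hold eIF4E away from eIF4G until mTOR phosphorylates them. Eif4ebp1 had a median of 4.16 CPM in HFD and 4.20 CPM in CD libraries, Eif4ebp2 had 1.06 CPM in HFD and 1.57 CPM in CD libraries, and Eif4ebp3 was at 0 at the median of both diets. For Eif4ebp3 this does not bound the mRNA, since 65.5% of its windows also occur in a gene that overlaps it on the same strand. Eif4ebp1 had 13.9 CPM in HFD replicate 5 and 0.851 CPM in CD replicate 3, and the other 10 libraries had between 3.23 and 6.35 CPM.

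The factors of subunit joining and of later steps ranged from the abundant Eif5a to the scarce Eif5a2. Eif5b, the GTPase of subunit joining, had medians of 761 CPM in HFD and 555 CPM in CD libraries, but 18.2% of its windows also occur in Rev1 on the other strand. Eif5a, which helps peptide bond formation during elongation (chromosome 11, bases 69916714 to 69921958), had lowest, median and highest values of 509, 1051 and 1461 CPM in HFD libraries, against 819, 1250 and 1841 CPM in CD libraries. This corresponded to a log2 fold change of -0.24 ± 0.28 (adjusted p of 0.655). Its paralog Eif5a2 (chromosome 3, bases 28781276 to 28798846) had medians of 5.16 CPM in HFD and 3.72 CPM in CD libraries, with a log2 fold change of 0.11 ± 0.73 (adjusted p of 0.948). Eif6, which keeps the large subunit from joining too early, had medians of 124 CPM in HFD and 60.7 CPM in CD libraries.

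**Figure D2:**
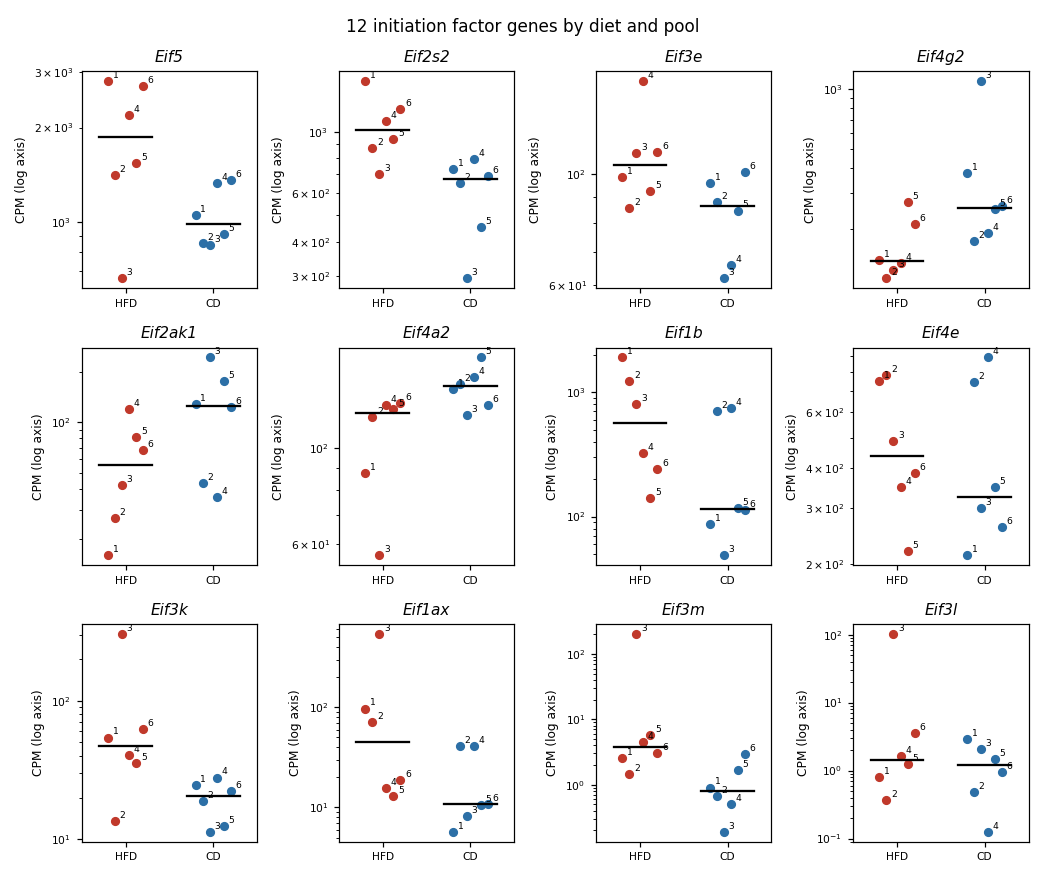
CPM (log y axis) of 12 initiation factor genes in the HFD (left) and CD (right) libraries, where numbers are replicates and lines are medians. Eif5 and Eif2s2 sit higher in HFD apart from replicate 3 (662 and 702 CPM), Eif4g2 sits lower in HFD with CD replicate 3 at 1096 CPM, and Eif3m and Eif3l reach 200.3 and 101 CPM in HFD replicate 3 alone.

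Per length of the longest transcript, factors were ordered by their mean level over all 12 libraries of both diets. Eif5a led this order, with a median of 732 CPM per kb in HFD and 870.0 CPM per kb in CD libraries. Eif2b1 came next with 669 CPM per kb in HFD and 799 CPM per kb in CD libraries, then Eif1 with 766 in HFD, above Eif5a there, and 612 in CD. Eif1b took the next place through its HFD libraries, with medians of 542 CPM per kb in HFD and 111 CPM per kb in CD libraries. In CD medians it lay below Eif4a1, Eif4e3, Eif2s2, Eif3i and Eif5. Eif4a1 had 366 CPM per kb in HFD and 492 CPM per kb in CD libraries, Eif4e3 had 475 in HFD and 319 in CD, and Eif5 had 461 in HFD and 243 in CD. The ranges of these neighbours overlapped, and per length of all exons joined Eif2b1 came first and Eif5a after it, so their order is not fixed.

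Subunits of one complex were far apart on the per-length scale. In eIF2B, Eif2b1 was 3681-fold above Eif2b5 in HFD medians (669 and 0.182 CPM per kb) and 5501-fold above it in CD medians (799 and 0.145 CPM per kb). In eIF3, Eif3i was 375-fold above Eif3l in HFD medians (278 and 0.742 CPM per kb), and 414-fold above Eif3m in CD medians (254 and 0.614 CPM per kb). The lowest members rest on few reads, so these ratios carry large counting error. The catalytic and the gamma subunits, Eif2b5 and Eif2s3x, were at or below 2.31 CPM in every library of both diets.

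**Figure D3:**
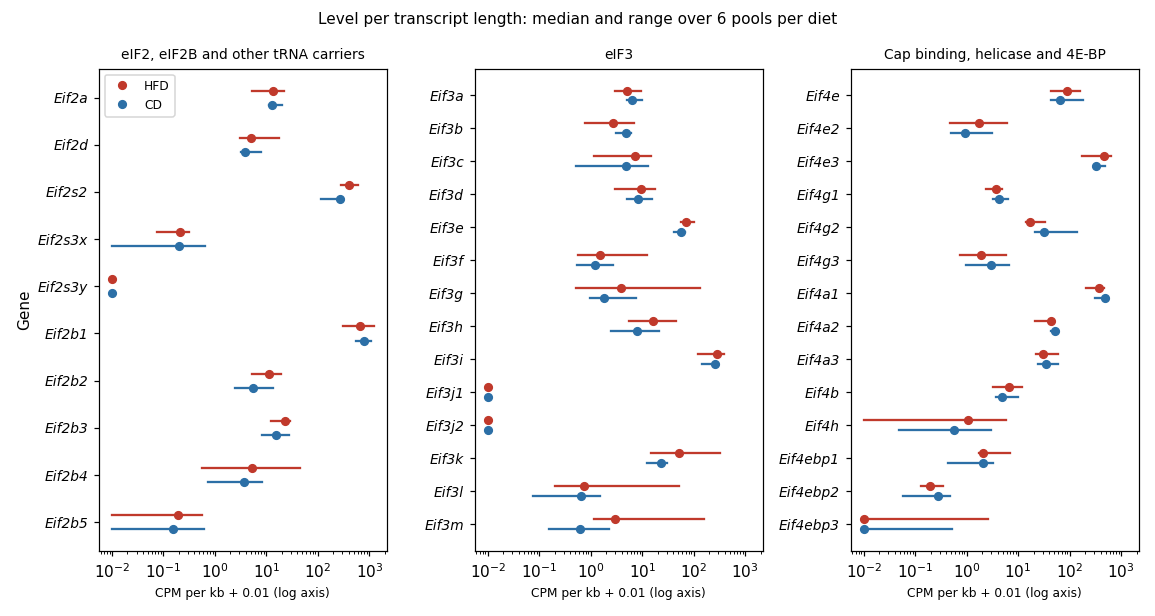
Level per transcript length (CPM per kb + 0.01, log x axis) of the genes of eIF2 and eIF2B, of eIF3, and of the cap-binding, helicase and 4E-BP groups, with the median (point) and range (line) of the 6 HFD (upper, red) and 6 CD (lower, blue) libraries. Eif2b1 and Eif2b5 span the eIF2B panel (669 and 0.182 CPM per kb in HFD), and long HFD lines mark Eif3g, Eif3l, Eif3m and Eif2b4.

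All factors together took 8194 to 15382 CPM in HFD libraries and 8345 to 12695 CPM in CD libraries. The 10 highest (Eif2b1, Eif5, Eif5a, Eif4e3, Eif1, Eif2s2, Eif4a1, Eif5b, Eif1b and Eif4e) held 66.1% to 90.7% of that sum in HFD libraries and 74.5% to 88.4% in CD libraries. HFD replicate 3 had the lowest value of both. As an unscaled share of the gene counts, all factors made up 0.978% to 1.38% in HFD and 0.843% to 1.19% in CD libraries, with CD replicate 3 the lowest. By pool, HFD replicate 3 was the highest library for 15 of the 44 tested factors (34.1%), against 22.6% of all genes, and the lowest for 10 (22.7%), against 16.7% of all genes. Abundant factors such as Eif5, Eif2b1, Eif5a and Eif4a1 were among its lowest, and scarce eIF3 subunits among its highest. CD replicate 3 was the lowest library for 11 factors (25%), against 17.2% of all genes, and the highest for 3 (6.82%), against 20.2% of all genes.

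A second pattern by pool ran across both diets. The 5 libraries highest for Eif1b (HFD replicates 1, 2 and 3 and CD replicates 2 and 4) were also the 5 highest for Eif1ad, Eif1ax, Eif3d, Eif3h, Eif4e, Eif4e2, Eif4h and Eif6. Counting Eif1b itself, this held for 9 of 44 factors (20.5%) and for 739 of all tested genes (7.44%). The same 5 libraries were the lowest for Eif2a and Eif2ak1, or 4.55%, and for 4.98% of all genes. Eif1b was picked for this after its values were seen, so these shares are a description with no test.

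**Figure D4:**
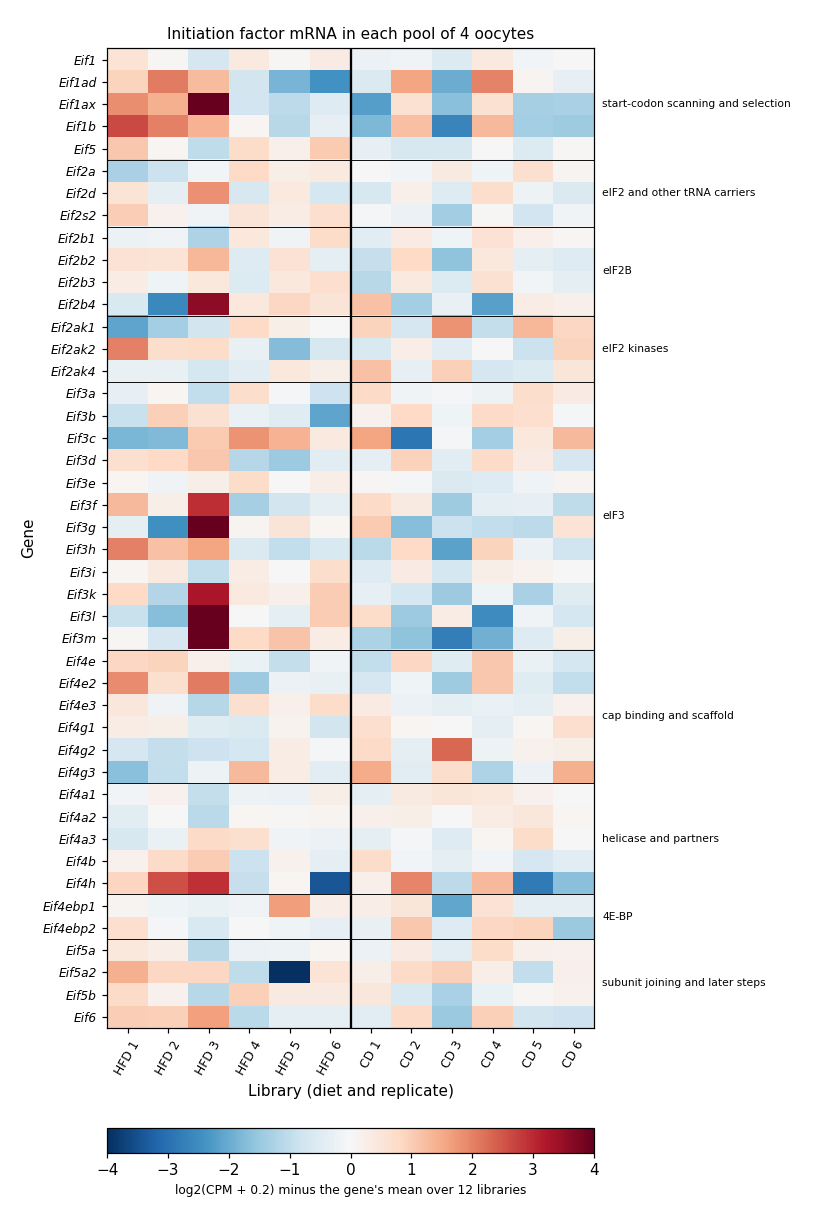
Colour gives log2(CPM + 0.2) minus the gene's mean over the 12 libraries, from -4 (blue) to 4 (red), for the 44 tested factors (rows, by role) in the 6 HFD (left) and 6 CD (right) libraries. The column of HFD replicate 3 is red for Eif3g, Eif3l, Eif3m and Eif2b4, and Eif1b, Eif4h and Eif6 are red in the same 5 libraries of both diets.

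Fold change moved with transcript length, among the factors as among all genes. The 8 tested factors with longest transcripts under 1500 nt had a median log2 fold change of 1.16, against 0.98 over all genes of that length. The 23 factors of 1500 to 4000 nt had 0.37, against 0.03, and the 13 of 4000 nt or more had -0.37, against -0.24. Without HFD replicate 3 the medians of the factors were 0.56, 0.16 and -0.30 over these classes, and those of all genes were 0.71, -0.06 and -0.26. With fold changes corrected for length, 5 factors were higher at an unadjusted p under 0.05 (Eif1ax, Eif2s2, Eif3l, Eif3m and Eif5), against 8.33% of all genes. Eif4a1, Eif4g2 and Eif5a were lower, against 6.84% of all genes. Eif5 and Eif2s2 kept log2 fold changes of 1.03 and 0.82 after this correction, Eif4g2 had -0.99 and Eif3k had 0.77.

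Stored mRNAs with the cytoplasmic polyadenylation element TTTTAT near the transcript end are known to gain poly(A) when the oocyte matures, and the cDNA was primed on poly(A). This motif was searched on the transcript strand in the last 100 nt of the longest transcript. Where fewer than 100 nt followed the stop codon, only those were searched, as for Eif3m (65 nt). The motif occurred in 5 of the 51 genes (9.8%), against 12.8% of 21745 protein-coding genes. The windows of Eif1ax, Eif3m and Eif4e3, whose diet differences are given above, are printed here from GENCODE M21, 5′ to 3′, with the motif in capitals.
Eif1ax: attcagtggatgTTTTATgctgcacaaata
Eif3m: atTTTTATgaaaatgattttgttcgttgag
Eif4e3: attttgagaaaaTTTTATttttgaacttta
Eif4e3 had a poly(A) signal (AATAAA or ATTAAA) in the last 40 nt of its transcript, while Eif1ax and Eif3m had neither. A match is a description and not a site of action, and no match says only that these letters were not in that window.

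Paralogs were compared within each pool as log2 ratios of their counts, which do not depend on library scaling. Eif1 over Eif1b averaged 0.87 ± 1.53 in HFD libraries and 2.22 ± 1.44 in CD libraries (SD, n = 6 each, exact permutation p of 0.154). Of the HFD libraries, 5 had a ratio below the average of the CD group, and the ranges overlapped, -0.57 to 2.68 in HFD and 0.18 to 3.61 in CD. Eif4a1 over Eif4a2 was the steadiest ratio, 2.63 ± 0.26 in HFD and 2.57 ± 0.35 in CD libraries (SD, n = 6 each, exact permutation p of 0.732).

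Eif4e over Eif4e2 averaged 6.08 ± 1.12 in HFD and 6.79 ± 0.53 in CD libraries (SD, n = 6 each, exact permutation p of 0.199). The difference of -0.71 became -0.40 (exact permutation p of 0.392) without HFD replicate 3, and -1.03 (exact permutation p of 0.0455, before adjustment) without HFD replicate 4. Eif4g1 over Eif4g2 averaged -2.97 ± 0.71 in HFD and -3.57 ± 1.02 in CD libraries (SD, n = 6 each, exact permutation p of 0.294), and without CD replicate 3 the difference of 0.59 became 0.19. Eif5a over Eif5a2 averaged 8.86 ± 2.76 in HFD and 8.32 ± 0.92 in CD libraries (SD, n = 6 each, exact permutation p of 0.823). In HFD replicate 5, Eif5a2 had no count, so the ratio of 14.18 there was set by the 0.5 added to each count. The difference between the diets, 0.53, was -0.53 without that library and 0.21 with 2 counts added in place of 0.5. Adjusted over the 5 ratios, the p-values of these two-sided exact permutation tests were between 0.491 and 0.823. The 924 splits allow no p below 0.00216.

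**Figure D5:**
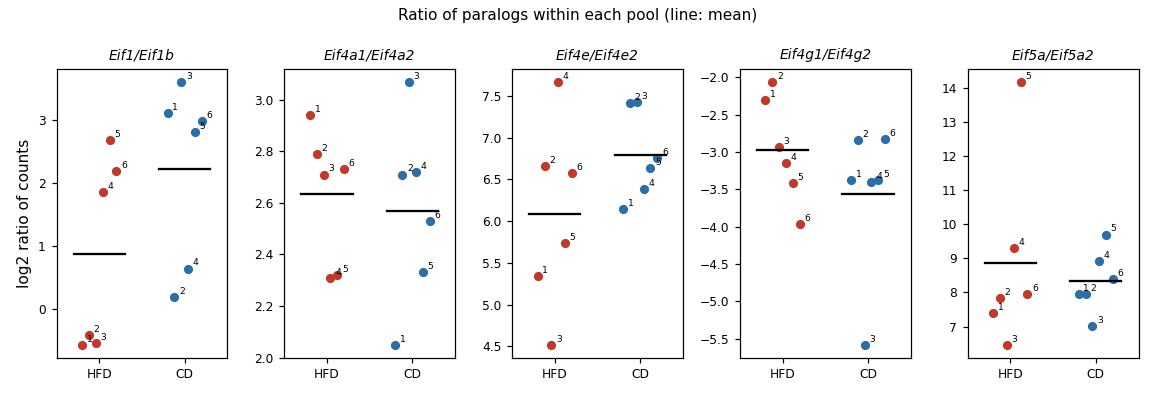
Log2 ratio of counts (y axis) of 5 pairs of paralogs within each HFD (left) and CD (right) library, where numbers are replicates and lines are means. The diets overlap in every panel, with Eif4a1 over Eif4a2 the tightest (2.63 in HFD and 2.57 in CD) and Eif1 over Eif1b the furthest apart (0.87 in HFD and 2.22 in CD).

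Genes that work beside the initiation factors were described as 5 lists, and edgeR called 0 genes in each. Of the poly(A)-binding proteins and their partners, 5 of 6 had fold changes above 0, with a median log2 fold change of 0.46. Paip2, which removes the poly(A)-binding protein from mRNA, had lowest, median and highest values of 19.9, 57.2 and 949 CPM in HFD libraries, against 7.96, 14.9 and 39.2 CPM in CD libraries. The fit gave a log2 fold change of 3.37 ± 0.93, with an adjusted p of 0.0946 in edgeR and 0.00283 in DESeq2, and 1.57 without HFD replicate 3. Pabpc4, a poly(A)-binding protein, had 66.0, 92.0 and 126 CPM in HFD libraries, against 87.0, 138 and 189.8 CPM in CD libraries, with a log2 fold change of -0.57 ± 0.28 (adjusted p of 0.251).

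Of the mTOR and MNK genes that control eIF4E and the 4E-BPs, 10 of 13 were tested, 4 above and 6 below 0, with a median of -0.26. Rps6, the small-subunit protein phosphorylated downstream of mTOR, had 1.77, 4.27 and 67.6 CPM in HFD libraries, against 0.567, 2.28 and 2.98 CPM in CD libraries, as lowest, median and highest values. Its log2 fold change of 2.78 ± 0.90 (adjusted p of 0.111) was 0.76 without HFD replicate 3. Rheb, the GTPase that activates mTOR, had a log2 fold change of 0.82 ± 0.47 (adjusted p of 0.314).

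Of the reinitiation and recycling genes 5 of 6 were tested, 3 above and 2 below 0, with a median of 0.079. Denr, which helps ribosomes restart, had 26.7, 41.5 and 66.3 CPM in HFD libraries, against 9.17, 22.3 and 29.4 CPM in CD libraries. Only the ends of the ranges overlapped, all 6 HFD libraries lay above the CD mean, and the log2 fold change was 1.03 ± 0.35, with an adjusted p of 0.119 in edgeR and 0.0454 in DESeq2. Ddx3x, a helicase used by mRNAs with structured leaders, had a log2 fold change of -0.47 ± 0.28 (adjusted p of 0.342).

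Of the elongation genes 6 of 7 were tested, 5 above and 1 below 0, with a median of 1.04. Without HFD replicate 3, Eef1a1 had a log2 fold change of 0.37 in place of 1.77, and Eef1b2 had 0.36 in place of 0.44. Eef2 then had -0.27 in place of 0.023, and Eef2k -0.13 in place of -0.033. Eef1e1, a protein of the tRNA synthetase complex, had 26.9, 66.5 and 219 CPM in HFD libraries, against 15.6, 19 and 34.9 CPM in CD libraries. On the log2 scale, the fold change was 2.14 ± 0.48, with an adjusted p of 0.0913 in edgeR and 0.00210 in DESeq2, and 1.69 without HFD replicate 3. Eef1d, a subunit of the exchange factor of eEF1A, had a log2 fold change of 1.65 ± 0.64 (adjusted p of 0.159), and 0.36 without HFD replicate 3. All 3 release genes were tested, 1 above and 2 below 0, with a median of -0.068. Etf1, which reads the stop codon, had a log2 fold change of 0.25 ± 0.31 (adjusted p of 0.681) and its partner Gspt1 had -0.23 ± 0.35 (adjusted p of 0.732).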

How the data were processed

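RNA of 12 pools of 4 oocytes (6 HFD, 6 CD) was measured. Per the labels, full-length cDNA was made from poly(A) RNA with SMART-Seq v4, which does not mark the strand, and tagmented with Nextera XT. The authors deposited whole-number read counts per gene symbol, and the submitters' processing notes name STAR, HTSeq 1.0.0, DESeq2 1.0.19 and mm10. The annotation and how reads were counted are not stated there. Tallies of unassigned reads (66.5% to 72.9% of reads in HFD, 62.3% to 66.6% in CD libraries) were left out.

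Counts as deposited were tested with edgeR 4.0.16 (quasi-likelihood, robust, TMM scaling, filterByExpr with a count minimum of 10) in R 4.3.3. Benjamini-Hochberg adjustment ran over all genes, after a check on simulated data. A prior count of 2 was set for log2 CPM in the length correction and in the correlations of same-numbered libraries. It was not set in the test itself. The filter equals about 0.999 counts per 1e6 of the unscaled library total, while CPM in the text use the TMM-scaled library. The SE of a fold change was derived as its absolute log2 value divided by the square root of the test's F statistic. Alternatives were DESeq2 1.42.0, limma-voom 3.58.1, total-count scaling, no filter, the all-even libraries halved, the 8 libraries with odd counts, a length correction (95.5% of tested genes had a length), a replicate block and leaving out each library. Same-numbered HFD and CD libraries deviated together with r between -0.452 and 0.55, so the numbers were not taken as pairs. Same-diet libraries had chi-square values of 27.7 to 362 per degree of freedom, far over sampling noise, and none was a copy.

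Symbols were matched to GENCODE M21 (GRCm38), 22758 of 24062, for positions, lengths and sequences. Shared windows of 50 bases were counted between transcripts of different genes. Paralog ratios used counts + 0.5. The members and the gene lists were chosen with earlier results of these data known. Fold changes are given for the 8 tested factors of smallest p in each direction, the 6 of highest level per kb and the 5 pairs of paralogs, and for the 2 genes of smallest p in each list.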

Additional observations from a re-analysis of the deposited data

Results flagged for a closer look

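In 88 groups (44 tested factors in each of 2 diets of 6 libraries), 4 held a highest or lowest library set apart from the nearest other by a gap past Dixon's critical value (log2 scale). Chance alone gives about 1 such group in 20. In HFD oocytes, replicate 3 stood apart for Eif3l (101 CPM) and Eif3m (200.3 CPM), both subunits of eIF3. For the 4E-BP gene Eif4ebp1, HFD replicate 5 stood above the other HFD libraries at 13.9 CPM, and CD replicate 3 stood below the other CD libraries at 0.851 CPM.

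Reads aligned to more than 1 place are outside the gene counts. Their share averaged 30.2% ± 3.91 in HFD libraries and 23.3% ± 2.84 in CD libraries (SD, n = 6 each). Their part in the counts of factors that share windows with other genes, such as Eif4a1 and Eif1, was not tested.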

How the results depend on the processing

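The main fit called 0 of 9935 genes and 0 factors. DESeq2 called 769 genes and 2 factors, and limma-voom 35 genes and 0 factors. The 8 libraries with odd counts, which keep HFD replicates 3 and 5 alone, gave 456 genes and 4 of 47 tested factors. These 4 were Eif3g, Eif3k, Eif3l and Eif3m, with log2 fold changes of 4.32, 3.01, 5.14 and 6.37. The number of all genes tested in that set is not given here, so no share over all genes stands beside the 4. Leaving out each library in turn gave 0 genes and 0 factors each time. Of factors higher at an unadjusted p under 0.05, 7 in the main fit, there were 6 to 9 with a library left out, 4 with DESeq2 and 4 with limma-voom. Among those 7, Eif3g, Eif3l and Eif3m had no adjusted p in DESeq2. Of factors lower, 1 in the main fit, there were 0 to 2 with a library left out (0 without CD replicate 3, 2 without HFD replicate 4, CD replicate 2 or CD replicate 4). There were 4 under total-count scaling, where the median over all genes was -0.064 against 0.04, and 2 with DESeq2, 0 in the odd-count libraries and 3 with the length correction. Shares of all genes are given above for the main fit, the length correction and the fits without HFD or CD replicate 3. For the other settings these shares were not counted, so the counts of factors there are a description only. The median log2 fold change of the factors, 0.32, ran from 0.15 to 0.42 with a library left out and was 0.0091 in the odd-count libraries. The replicate block, for numbers that were not taken as pairs, gave 0 calls, with 3 factors higher and 0 lower at an unadjusted p under 0.05. Of the HFD libraries, replicates 2 and 6 alone correlated best with the CD library of their own number.

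For the 24 factors with fold changes in the text, 480 of 504 values under 21 alternatives kept their direction and were not called. The 480 include the DESeq2 values of Eif3g, Eif3l and Eif3m, which had no adjusted p. Another 6 values passed the threshold, and 18 values in 6 factors changed sign. These were Eif1 (-0.24 in odd-count libraries, -0.33 with the length correction), Eif4e3 (-0.28 in odd-count libraries), Eif2b1 (0.0064 with limma-voom, -0.30 to 0.034 with a library left out) and Eif3g (-0.0016 to 3.33 with a library left out). Eif4e had -0.46 in odd-count libraries and -0.072 to 0.40 with a library left out, and Eif5a2 had -1.09 with limma-voom, -0.61 in odd-count libraries, -0.42 with the replicate block and -0.21 to 0.34 with a library left out. With a library left out, the difference between diets in the log2 ratio ran from -0.04 to 0.16 for Eif4a1 over Eif4a2, from -1.03 to -0.40 for Eif4e over Eif4e2 and from -0.53 to 1.01 for Eif5a over Eif5a2. The cause of these shifts was not tested. Replicate libraries of one diet had a biological coefficient of variation of 64%, and factors with low counts such as Eif2b5 and Eif4ebp3 rest on a few reads, so small differences were not detectable.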
